A study of Mus musculus with 12 samples.

Results

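The genes described here encode enzymes that make phosphatidylethanolamine and phosphatidylcholine, the most abundant phospholipids of mammalian membranes. The 10 genes, Pcyt2, Pcyt1a, Pcyt1b, Etnk1, Chka, Chkb, Cept1, Selenoi, Chpt1 and Pisd, were taken by name from the 30165 genes of the OPC table and the 17918 genes of the neuron table, and all 10 had values in both. Pcyt2 was picked because its counts were lower in the oligodendrocyte precursor cells (OPCs) of mutant mice, so its OPC values chose it and are given below as a description, without a test. The mice carried NG2-CreERT2, which drives Cre recombinase in NG2-expressing cells after tamoxifen, with floxed alleles of a pair of L-type calcium channel genes, Cacna1c for Cav1.2 (exons 14 and 15) and Cacna1d for Cav1.3 (exon 2), and are called dKO. Tamoxifen was given at 100 mg/kg on postnatal days 7 and 8, and the age at cell collection was not stated in the sources used here. The control mice (ctl) were labelled WT, and whether they carried Cre or floxed alleles or received tamoxifen was not stated there either. For each cell type, ctl and dKO had 3 RNA-seq libraries each, every library pooling 2 mice. OPCs were sorted from cortex on magnetic beads that bind CD140, NG2 or O4, and neurons by depletion of cells binding ACSA-2, CD31, CD11b or O4, so the neurons came from mice in which the deletion was directed at OPCs.

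In the CDP-ethanolamine and CDP-choline branches, known together as the Kennedy pathway, a kinase phosphorylates the base, a cytidylyl transferase couples it to CTP, and a phosphotransferase passes the activated headgroup to diacylglycerol. The cytidylyl transferase step is held to set the rate of each branch, with Pcyt2 acting on phosphoethanolamine and Pcyt1a and Pcyt1b on phosphocholine. Phosphatidylethanolamine is also made in mitochondria by Pisd, which decarboxylates phosphatidylserine, and ethanolamine lipids, many of them plasmalogens, are a large part of the myelin that oligodendrocytes make.

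Total counts ranged from 14935963 to 19812274 per library in OPCs and from 15052901 to 16344585 in neurons. Among the targeted genes, Cacna1c had 407 ± 33.1 (SD, n = 3) normalized counts in ctl OPCs and 300.4 ± 43.5 in dKO OPCs, and Cacna1d 232 ± 36.1 and 159 ± 69.9. Neither targeted gene passed the threshold in OPCs (edgeR's quasi-likelihood test, Benjamini-Hochberg adjusted p = 0.349 and 0.531), and these counts cover whole genes, including exons outside the deletions. Marker genes of other cell types were present in both sorts. In the OPC libraries, 12 oligodendrocyte markers summed to between 50256 and 86800 CPM, against 943 to 1882 for 10 OPC markers. CPM are counts scaled to library size, here with a prior count of 1 added. In the neuron libraries, 10 endothelial markers summed to between 12188 and 27193 CPM, against 587 to 1408 for 12 neuron markers, 11 of which had counts. In dKO neuron libraries 10 of 10 endothelial, 12 of 12 oligodendrocyte, 12 of 12 microglial and 8 of 10 astrocyte markers were lower by their group means and 10 of 11 neuron markers higher. The summed oligodendrocyte markers were at 796 to 4218 CPM in ctl and 1222 to 2039 in dKO neuron libraries, the microglial ones at 473 to 2146 and 457 to 1174, and the neuron markers at 587 to 793 and 779 to 1408. No detected marker of any list was at 0. Summed markers of 12 microglial genes ran from 283 to 343 CPM in ctl OPC libraries and from 377 to 1142 in dKO, with 12 of 12 genes higher in dKO, and 10 of 10 astrocyte markers were also higher, at 1197 to 2017 against 1925 to 5628 CPM. Of the oligodendrocyte markers 10 of 12 were lower in dKO OPC libraries (50256 to 86800 against 68163 to 80561 CPM in ctl), and of the endothelial markers 10 of 10 were higher (1190.4 to 3300.0 against 1437 to 2098), both with overlap. The OPC markers were higher in dKO for 7 of 10 (942.91 to 1881.5 against 1076.5 to 1766.5 CPM in ctl). Neuron markers were higher for 10 of 12 (164.29 to 177.94 against 151.91 to 167.92 CPM), and both sums overlapped. One OPC library stood apart: dKO replicate 2 had 778 CPM of Xist, whereas the other 5 had at most 1.22. Its Y-linked Ddx3y stood at 0.0572 CPM, the same value as Eif2s3y, Kdm5d and Uty there. That value is the floor that the prior count gives to a gene without reads. The other 5 OPC libraries had at least 123 CPM of Ddx3y. Among neuron libraries, replicate 1 of both groups held Ddx3y at 162 to 202 CPM and the other 4 at no more than 0.974.

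Per unit of length, Pcyt2 was the highest of the 10 genes in ctl OPCs and the seventh in ctl neurons. Levels are given as FPKM, deposited by the authors, which divides reads by gene or transcript length and library size. They are levels in the sorted libraries, where oligodendrocyte markers in the ctl OPC libraries and endothelial markers in the ctl neuron libraries summed to more CPM than the markers of the labelled cells. The part of those other cells in the order of levels was not tested. The order and shares in OPCs also rest on the deposited gene lengths, such as 4346 bases for Pcyt2 and 14151 for Etnk1. Without division by length, Etnk1 had the higher mean in ctl OPCs, at 6283.4 normalized counts against 3226.5 for Pcyt2. In ctl OPCs Pcyt2 stood at 42.2 ± 4.58 FPKM (SD, n = 3). Below it came Etnk1, the main ethanolamine kinase of many tissues, at 25.2 ± 1.56 FPKM and Cept1, a phosphotransferase that can use either headgroup, at 17.9 ± 0.504. Chpt1, the choline phosphotransferase, stood at 13.9 ± 0.0686 FPKM, Pcyt1b at 11.8 ± 1.93 and Pcyt1a at 9.72 ± 1.07. The lower end held Chka at 6.15 ± 0.657, Selenoi at 4.95 ± 0.464, Pisd at 3.99 ± 0.394 and Chkb at 0.534 ± 0.0610 FPKM. Neighbours in this order did not overlap between libraries, except Chpt1 with Pcyt1b and Pcyt1b with Pcyt1a. On the genome, Gm44502 overlaps Chkb, and Gm20671 and Gm43695 overlap Pisd, each on the same strand and without a row among the OPC genes. Their part in the low OPC levels of Chkb and Pisd was not tested.

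In the ctl neuron libraries, with 23311 to 27193 CPM of endothelial and 587 to 793 of neuron markers, Cept1 led instead, at 74.8 ± 8.35 FPKM, and Chpt1 came next at 42.3 ± 3.80. Pisd followed at 37.3 ± 3.91 FPKM, Etnk1 at 36.4 ± 2.90, the choline kinases Chkb and Chka at 29.5 ± 0.169 and 20.6 ± 3.19, Pcyt2 at 20.0 ± 2.26 and Pcyt1a at 16.0 ± 1.56. Selenoi, the ethanolamine phosphotransferase, and Pcyt1b were lowest, at 3.61 ± 0.829 and 3.35 ± 0.807 FPKM. Chpt1 and Pisd, Pisd and Etnk1, Chka and Pcyt2, and Selenoi and Pcyt1b overlapped between libraries. Of the summed FPKM of the 10 genes, Pcyt2 held 30.9% ± 1.14 in ctl OPCs and 7.06% ± 0.821 in ctl neurons. The cell types were counted against different gene models, and no test was made between them.

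**Figure D1:**
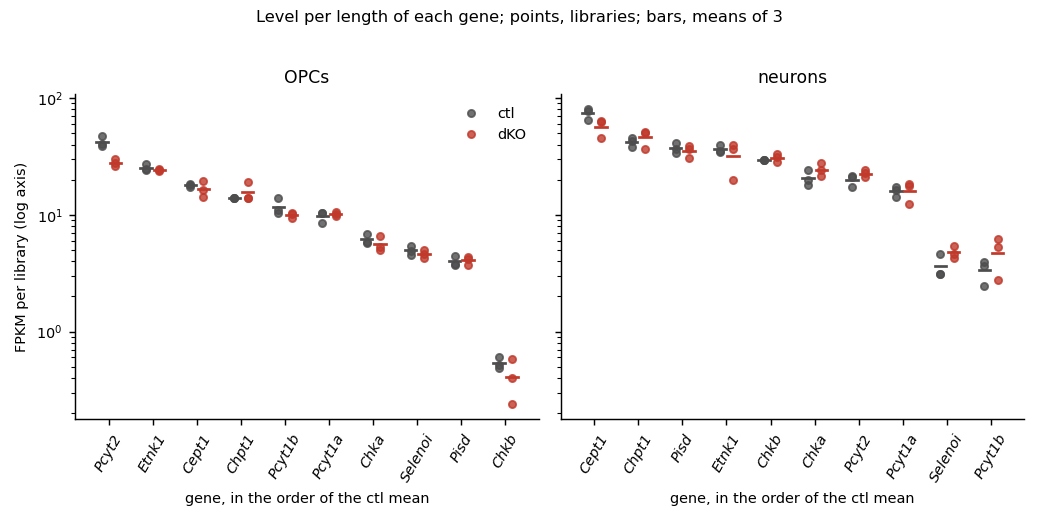
Level per length of the 10 genes in OPCs and neurons, in FPKM on a log axis, with one point per library, bars at the mean of 3, and genes in the order of the ctl mean. Pcyt2 leads in OPCs at 42.2 FPKM in ctl and is seventh in neurons at 20.0, where Cept1 leads at 74.8.

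The first question was how the ethanolamine branch differed between ctl and dKO OPCs. Pcyt2, which makes CDP-ethanolamine, lies on the minus strand of chromosome 11 (11:120500913-120508762, as deposited, where the submitters' processing notes name mm39). Its normalized counts, scaled for library size and composition, were 3022, 3598 and 3059.8 in ctl libraries and 2095, 2296 and 1989 in dKO libraries. The highest dKO library was below the lowest ctl library, so the groups did not overlap. Over all 17364 genes tested in OPCs, 16.9% had groups that did not overlap, 7.41% with dKO higher and 9.54% with dKO lower. The mean was 3226 ± 322 (SD, n = 3) in ctl and 2127 ± 156 in dKO, a difference of -34.1% or -0.60 on the log2 scale (SE 0.119). This is the value the gene was chosen for, and it carries no test. In bulk libraries a smaller share of cells with much of an RNA and less of that RNA per cell cannot be told apart.

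With single libraries left out, the Pcyt2 difference ranged from -0.66 to -0.52 on the log2 scale, and it was -0.66 (SE 0.137) without dKO replicate 2. These values come from the libraries on which the gene was chosen, so neither they nor the fits with marker terms are a sign of stability. The difference was -0.43 (SE 0.187) with the mean of the microglial markers as a term in the fit, -0.49 (SE 0.140) with the oligodendrocyte markers, -0.55 (SE 0.111) with the endothelial and -0.67 (SE 0.206) with the astrocyte markers. In FPKM, Pcyt2 went from 42.2 ± 4.58 in ctl to 27.8 ± 2.00 in dKO OPCs, where it was still the highest of the 10 genes. Its share of their summed FPKM was 30.9% ± 1.14 in ctl and 23.3% ± 1.22 in dKO.

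The other ethanolamine genes were close to level between ctl and dKO OPCs. Etnk1, which phosphorylates ethanolamine one step before Pcyt2, had 6198, 6664 and 5988 normalized counts in ctl and 6056, 5924 and 6041 in dKO. The 2 groups overlapped, and the log2 fold change was -0.06 (SE 0.113, 95% interval -0.32 to 0.19). Selenoi, which transfers the headgroup in the last step, had 1137, 1248 and 1047 normalized counts in ctl and 1059, 984 and 1161 in dKO, again overlapping, with a log2 fold change of -0.10 (SE 0.113, interval -0.36 to 0.16). Pisd, the mitochondrial route, ranged from 379 to 449 normalized counts in ctl and from 373 to 438 in dKO (log2 fold change 0.03, SE 0.131). Pisd has transcribed pseudogene copies and is overlapped by annotated genes on its own strand, so reads could be shared. The FPKM ratio of Pcyt2 to Etnk1 was 1.67 ± 0.0853 in ctl and 1.15 ± 0.0980 in dKO OPCs, and that of Pcyt2 to Selenoi 8.53 ± 0.430 and 6.07 ± 0.943. Both ratios hold Pcyt2, so they describe the same low counts from another side.

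In the choline branch, Pcyt1b was the 1 member other than Pcyt2 whose ctl and dKO OPC libraries did not overlap. Pcyt1b, the X-linked isoform of the phosphocholine cytidylyl transferase that is prominent in brain, had 978, 1303 and 1045 normalized counts in ctl and 971, 955 and 883 in dKO. All dKO libraries lay below all ctl libraries, but the gap between dKO replicate 1 and ctl replicate 1 was small. The log2 fold change of Pcyt1b was -0.24 (SE 0.128), which did not pass the threshold (edgeR's quasi-likelihood test, unadjusted p = 0.0929, Benjamini-Hochberg adjusted p = 0.505). Of all genes tested in OPCs, 9.54% were lower in dKO without overlap. The value of Pcyt1b was -0.11 without ctl replicate 2, -0.33 without ctl replicate 1 and -0.26 without dKO replicate 2. It was -0.06 with the oligodendrocyte markers as a term.

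Pcyt1a, the widely expressed isoform of the same enzyme, had 1117, 1339.8 and 1342 normalized counts in ctl OPCs and 1358, 1283 and 1338 in dKO OPCs. Its groups overlapped at a log2 fold change of 0.07 (SE 0.108). The FPKM ratio of Pcyt1b to Pcyt1a was 1.21 ± 0.134 in ctl and 0.977 ± 0.0594 in dKO, without overlap. Chka, a choline kinase, overlapped between 1214 to 1448 normalized counts in ctl and 1038 to 1410.0 in dKO (log2 fold change -0.12, SE 0.139). Chkb, the other choline kinase, had few counted reads in OPCs, with 32, 27 and 25 raw counts in ctl and 32, 24 and 12 in dKO. With so few counts its log2 fold change of -0.38 has an SE of 0.398 and an interval from -1.29 to 0.53. In the GENCODE M21 annotation Chkb overlaps Gm44502, a protein-coding gene on the same strand that has no row among the OPC genes. Whether shared reads were left out of the Chkb count was not tested.

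Chpt1, which acts last in the choline branch, and Cept1, which can act last in either branch, also overlapped in OPCs. Here 1 library weighed on the values. Chpt1 had 2054, 2010.2 and 2048 normalized counts in ctl and 2018, 2832 and 2051 in dKO. The one high library was dKO replicate 2, the library with Xist counts. Its log2 fold change was 0.18 (SE 0.145) with all libraries and -0.0014 without dKO replicate 2, and 0.53 (SE 0.161) with the microglial markers as a term. Cept1 had 959.8, 977 and 1005 normalized counts in ctl and 1067, 778 and 903 in dKO. The lowest Cept1 library was again dKO replicate 2. Cept1 stood at -0.10 (SE 0.128) with all libraries and 0.0078 without that one. Cept1 overlaps Dram2 on the opposite strand, and whether reads were counted by strand was not stated in the sources used here.

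**Figure D2:**
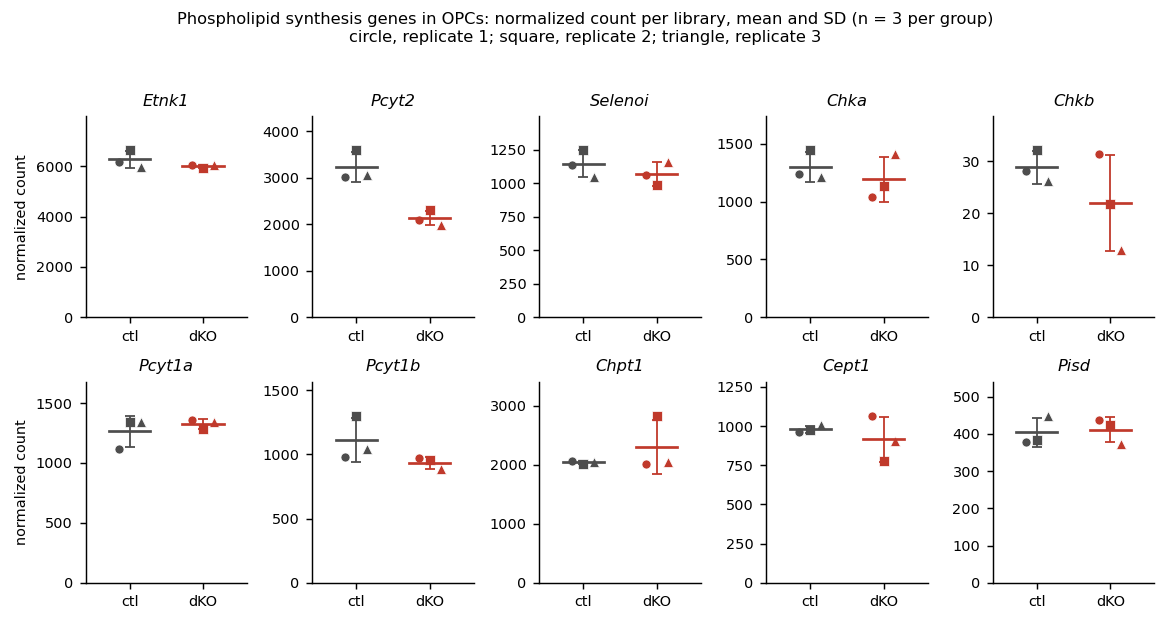
Normalized counts of the 10 genes in each OPC library, by group, with the mean and SD of 3 libraries and each replicate by its symbol. Pcyt2 separates, from 3022 to 3598 in ctl against 1989 to 2296 in dKO, Pcyt1b separates narrowly, and the other 8 overlap.

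Of the 9 members other than Pcyt2, 0 passed an adjusted p of 0.05 in OPCs with edgeR's quasi-likelihood test, 0 had an unadjusted p under 0.05, and DESeq2 called 0. In 2 alternatives 1 member had an unadjusted p under 0.05 in edgeR's fit, Pcyt1b at 0.0455 without ctl replicate 1 and Chpt1 at 0.0105 with the microglial markers as a term. The background was 0.00576% of 17364 genes tested at the adjusted threshold and 11.5% at the unadjusted one. The 9 had 3 values above 0 and 6 below, with a median log2 fold change of -0.10 against 0.0055 over all genes tested. Because Pcyt2 was chosen in this same comparison, nothing is read from these counts about the 10 genes as a group.

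The neurons of the same genotypes gave a comparison that had no part in choosing Pcyt2. Pcyt2 had 555, 548 and 475 normalized counts in ctl neurons and 603, 533 and 577 in dKO neurons. The groups overlapped and the dKO mean of 571 ± 35.6 lay above the ctl mean of 526 ± 44.2. The log2 fold change was 0.12 (SE 0.144, interval -0.21 to 0.45; edgeR's quasi-likelihood test, adjusted p = 0.825), and in each run without 1 library it was between 0.05 and 0.17. With the endothelial markers as a term it stood at 0.03 (SE 0.184). Of the 5 Pcyt2 transcripts in the neuron table, 2 held 50.5% and 43.3% of the gene's estimated counts. Both of these overlapped between ctl and dKO.

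Cept1 was the 1 member whose ctl and dKO neuron libraries did not overlap. It had 2627, 2263 and 2697 normalized counts in ctl and 1558, 1955 and 1968 in dKO, so that all dKO libraries lay below all ctl libraries. The mean was 2529 ± 233 in ctl and 1827 ± 233 in dKO, a log2 fold change of -0.47 (SE 0.150, interval -0.81 to -0.13) or -27.8%. The unadjusted p was 0.0131 and the adjusted p 0.521 with edgeR's quasi-likelihood test, so Cept1 did not pass, and DESeq2 gave an adjusted p of 0.197. Over all neuron genes tested, 15.3% had groups that did not overlap, 7.5% with dKO higher and 7.82% with dKO lower, and 9% had an unadjusted p under 0.05, 4.04% with dKO lower. Without ctl replicate 3 the unadjusted p of Cept1 was 0.0508, and with each of the other 5 libraries left out it stayed under 0.05.

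The Cept1 values moved with endothelial markers. The 10 endothelial markers were all lower in dKO neuron libraries, summing to 25500, 23311 and 27193 CPM in ctl and to 12188, 20462 and 20933 in dKO. The order of the 6 libraries by Cept1 counts was the same as their order by these markers. With the mean of the endothelial markers as a term, Cept1 stood at -0.24 (SE 0.146, unadjusted p = 0.138 in edgeR's fit). A single predicted RefSeq transcript model held 83.1% of the gene's estimated counts, with 2271, 1766 and 2305 normalized counts in ctl and 1202, 1655 and 1666 in dKO. The 4 curated transcripts held 10.7%, and summed on their own they gave a log2 fold change of -0.55 with an SE of 0.444.

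The promoters of Cept1 and of Chpt1, the enzymes that close the choline branch and had the highest mean levels in neurons, are printed to show the sequence context of the member whose neuron groups did not overlap beside its counterpart. They run from 250 bases before to 50 bases after a RefSeq start on GRCm38.p6, 5′ to 3′ on the gene's strand, with capitals marking CCAAT and GGGCGG on either strand, and both genes lie on the minus strand. The Cept1 start at chr3:106547576-106547875 has 66.0% G and C and 3 copies of GGGCGG, the one at chr3:106543097-106543396 has 27.3% and 1 CCAAT, and the Chpt1 window at chr10:88503921-88504220 has 75.3% with 5 copies of GGGCGG and 1 CCAAT. Another Cept1 window, chr3:106547753-106548052, overlaps the first and is not printed here, and it has 64.0% G and C and 1 GGGCGG.
Cept1, chr3:106547576-106547875: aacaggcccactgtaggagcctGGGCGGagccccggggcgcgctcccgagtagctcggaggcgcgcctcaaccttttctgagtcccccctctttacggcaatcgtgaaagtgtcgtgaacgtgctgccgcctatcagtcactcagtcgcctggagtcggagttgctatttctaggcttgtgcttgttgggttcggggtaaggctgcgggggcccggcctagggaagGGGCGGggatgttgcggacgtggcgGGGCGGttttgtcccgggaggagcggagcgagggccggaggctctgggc
Cept1, chr3:106543097-106543396: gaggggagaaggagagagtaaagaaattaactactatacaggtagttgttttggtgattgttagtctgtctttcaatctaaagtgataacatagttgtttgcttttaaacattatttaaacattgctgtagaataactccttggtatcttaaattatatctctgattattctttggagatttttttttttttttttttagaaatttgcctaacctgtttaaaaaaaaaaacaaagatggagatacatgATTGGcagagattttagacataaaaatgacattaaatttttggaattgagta
Chpt1, chr10:88503921-88504220: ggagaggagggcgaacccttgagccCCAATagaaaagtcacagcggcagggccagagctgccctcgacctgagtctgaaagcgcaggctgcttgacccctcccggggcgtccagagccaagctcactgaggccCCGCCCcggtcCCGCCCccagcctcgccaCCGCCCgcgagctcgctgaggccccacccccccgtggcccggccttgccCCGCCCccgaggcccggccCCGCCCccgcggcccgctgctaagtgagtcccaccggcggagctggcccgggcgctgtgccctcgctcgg
Windows were matched for the 9 members other than Pcyt2, with 15 windows in all, and some windows of Cept1 and of Pcyt1a overlap each other. GGGCGG was in 10 of the 15 (8 of the 9 genes), against 35.7% of all 32851 windows, and CCAAT in 8 (7 genes), against 37.4%. TATAAA was in 1 of the 15 (13.6% of all) and CACGTG in 0 (7.15%). A match describes the letters only.

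The remaining members overlapped between ctl and dKO neurons. Pcyt1b had 175, 265 and 303 normalized counts in ctl and 430.1, 381 and 197 in dKO, where replicate 3 was low and the other 2 were above all ctl libraries (log2 fold change 0.44, SE 0.324). Selenoi had 318, 474 and 339 in ctl and 459, 550.0 and 435 in dKO, with ctl replicate 2 within the dKO range (log2 fold change 0.35, SE 0.200). With single libraries left out, Pcyt1b ran from 0.22 without dKO replicate 1 to 0.71 without dKO replicate 3 (edgeR's unadjusted p = 0.532 and 0.0342), and with the endothelial markers as a term it stood at 0.07 (SE 0.416). Selenoi ran from 0.24 without ctl replicate 1 to 0.55 without ctl replicate 2 (edgeR's unadjusted p = 0.304 and 0.0283).

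Etnk1 rested on dKO replicate 1, the neuron library with the fewest endothelial marker counts. It had 3299.7, 3882 and 3566 normalized counts in ctl neurons and 1849.5, 3787 and 3504 in dKO neurons. The log2 fold change was -0.23 (SE 0.251) with all libraries and 0.03 without dKO replicate 1. Pcyt1a was also lowest in that library, with 851 normalized counts against 1029 to 1301 in the other 5. Its log2 fold change of -0.04 (SE 0.186) became 0.12 without it. Chka (0.12, SE 0.145), Chkb (0.02, SE 0.134), Chpt1 (0.04, SE 0.151) and Pisd (-0.14, SE 0.151) had log2 fold changes within 1 SE of 0. Chkb had 686 to 735 normalized counts in ctl neurons and 655 to 771 in dKO neurons. Its low OPC counts were made per Ensembl gene, where Gm44502 overlaps it on the same strand. The neuron counts were estimated per RefSeq transcript, so the contrast with OPCs cannot be told apart from the counting.

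Of the 10 members in neurons, 1 had an unadjusted p under 0.05 (Cept1), against 9% of 14352 genes tested, and the count was 0 without ctl replicate 3, with the endothelial term or over curated transcripts only, and 2 without ctl replicate 2 or dKO replicate 3. The adjusted threshold was passed by 0 members and by 0% of genes with edgeR's quasi-likelihood test, and DESeq2 called 0 members, against 0.621% of the genes to which it gave an adjusted p. The members had 6 values above 0 and 4 below, with a median log2 fold change of 0.03 against 0.0075 over all genes. The difference in Pcyt2 between the cell types was not tested.

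**Figure D3:**
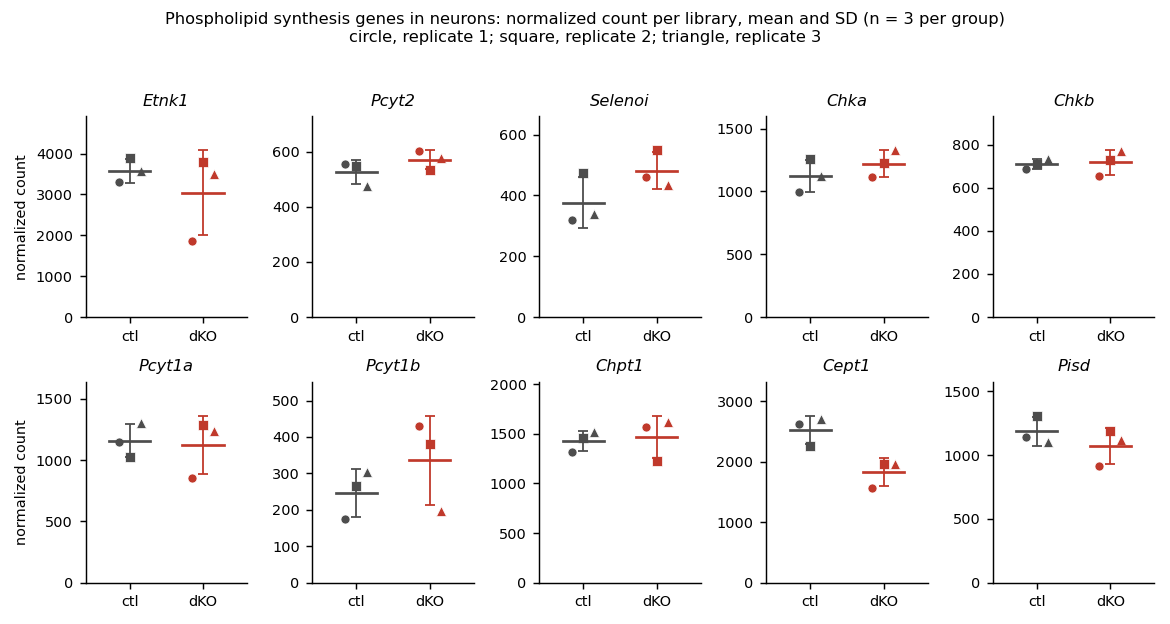
Normalized counts of the 10 genes in each neuron library, by group, with the mean and SD of 3 libraries and each replicate by its symbol. Cept1 separates, from 2263 to 2697 in ctl against 1558 to 1968 in dKO, and the other 9 overlap, Pcyt2 at 475 to 555 against 533 to 603.

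**Figure D4:**
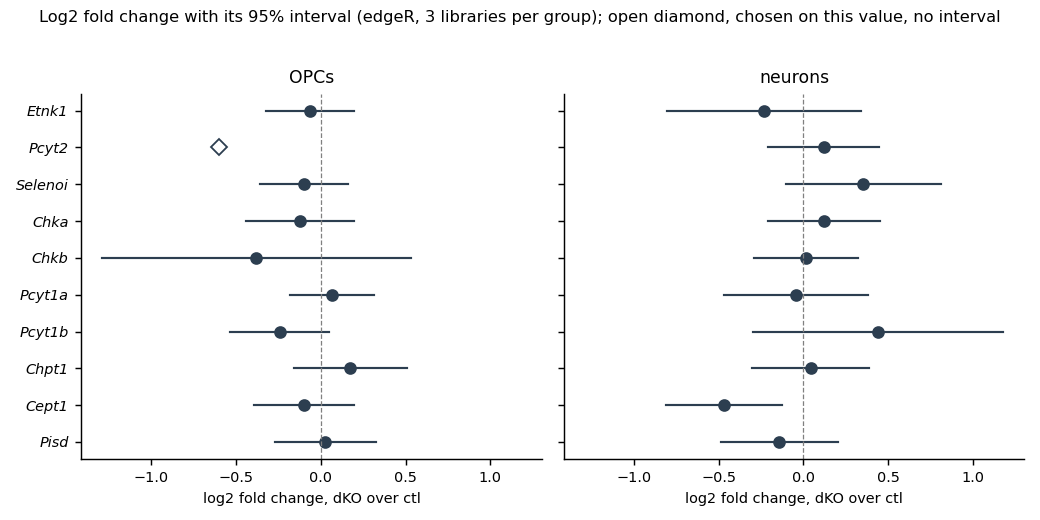
Log2 fold change of dKO over ctl with its 95% interval for each gene in OPCs and in neurons, from edgeR. The open diamond, Pcyt2 in OPCs at -0.60, was chosen on this value and has no interval, and Cept1 in neurons, from -0.81 to -0.13, is the one interval that leaves out 0.

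Around these 10 genes, 51 further genes of the same lipid network were listed by role. In OPCs 49 were tested (1 was under the count filter and 1 had no row matched by name), with 26 above 0 and 23 below and a median log2 fold change of 0.02. Of them 7 had an unadjusted p under 0.05 (3 higher, 4 lower), which is to be set beside 11.5% of all genes (6.27% higher, 5.27% lower). With edgeR's quasi-likelihood test 0 passed the adjusted threshold, and DESeq2 called 3, Lpcat1, Etnppl and Mboat1, against 1.68% of the 17358 genes to which it gave an adjusted p. Names of genes beyond the smallest p and the highest FPKM of each role, such as Etnppl, Mboat1, Lpcat2 and Lpcat4, were chosen after their values were seen.

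Acyl chain remodelling held most of these genes in OPCs. Of its 7 acyltransferases, which refit fatty acids onto lysophospholipids, 5 had an unadjusted p under 0.05 with edgeR, against 11.5% of all OPC genes tested. With edgeR 0 of the 7 passed the adjusted threshold, and the role was not tested as a set. Lpcat1, which reacylates lysophosphatidylcholine, had 305, 305 and 331 normalized counts in ctl and 443, 634 and 516 in dKO, without overlap (log2 fold change 0.76, SE 0.154, edgeR adjusted p = 0.246, DESeq2 adjusted p = 0.0071). Lpcat1 stood at 0.38 (SE 0.193) with the astrocyte markers as a term and at 1.02 (SE 0.202) with the microglial markers. Mboat1, which prefers lysophosphatidylethanolamine and lysophosphatidylserine, went the other way, with 747, 948 and 663 in ctl and 515, 514 and 489 in dKO (-0.64, SE 0.145, edgeR adjusted p = 0.264, DESeq2 adjusted p = 0.0323). Lpcat4 (-0.40, SE 0.143) was also below all ctl libraries, and Lpgat1 (-0.35, SE 0.143) and Lpcat2 (0.32, SE 0.135) overlapped. The members of this role thus had both signs. With the microglial markers as a term Lpcat2 stood at -0.0027, and with the astrocyte markers as a term 1 of the 49 genes had an unadjusted p under 0.05 in place of 7.

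Among the genes that supply or remove the bases, Etnppl, the lyase that breaks down phosphoethanolamine and so draws on the substrate of Pcyt2, had 200.4, 299 and 346 normalized counts in ctl OPCs and 410.5, 1016 and 578 in dKO OPCs. The groups did not overlap and dKO replicate 2 was the highest (log2 fold change 1.25, SE 0.332, edgeR adjusted p = 0.292, DESeq2 adjusted p = 0.0233). Etnppl is known as an astrocyte gene, and the summed astrocyte markers were 1197, 1721 and 2017 CPM in ctl and 1925, 5628 and 2985 in dKO. With these markers as a term Etnppl stood at 0.15 (SE 0.223), and without dKO replicate 2 at 0.81. Chdh, which oxidises choline toward betaine, had 1371, 1414 and 1259 normalized counts in ctl and 1030.1, 876 and 1046 in dKO, without overlap (-0.45, SE 0.110, adjusted p = 0.288 with edgeR). Chdh stood at -0.27 (SE 0.173) with the astrocyte markers as a term and at -0.63 (SE 0.173) with the microglial markers. Gde1, the highest of this role per length in OPCs, was at -0.07 (SE 0.123).

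The other roles in OPCs held 0 genes with an unadjusted p under 0.05 in edgeR's test. Agpat4, which makes phosphatidic acid on the way to diacylglycerol, was at -0.35 (SE 0.173), and at -0.0091 (SE 0.117) with the oligodendrocyte markers as a term. Ptdss1, which swaps choline for serine to make phosphatidylserine, was at 0.08 (SE 0.118). Of 6 tested genes of ether lipid synthesis, the peroxisomal route to plasmalogens, 5 were below 0, with Far1, the fatty alcohol supplier, at -0.27 (SE 0.121) and Gnpat, which starts the route, at -0.14 (SE 0.0903). Pnpla7 (0.29, SE 0.132) and Pnpla6 (-0.16, SE 0.117), which deacylate choline lipids, differed in sign.

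In neurons 47 of the 51 genes were tested (4 were under the count filter), with 21 above 0 and 26 below and a median log2 fold change of -0.04. An unadjusted p under 0.05 was found for 6 (3 higher, 3 lower) against 9% of all genes (4.96% higher, 4.04% lower), and 0 passed the adjusted threshold with edgeR or DESeq2. The count of 6 was 2 without ctl replicate 1, 3 without ctl replicate 2 and 2 with the microglial markers as a term. Gpcpd1, which splits glycerophosphocholine and was the highest gene of the base supply role per length, had 26230.2, 25823 and 25975 normalized counts in ctl and 12647, 18653 and 21267 in dKO, without overlap (log2 fold change -0.57, SE 0.209). With the endothelial markers as a term it stood at -0.20 (SE 0.159). Enpp6, a choline-releasing phosphodiesterase of newly formed oligodendrocytes, had 441, 383 and 108 in ctl and 144, 79.5 and 116 in dKO (-1.46, SE 0.485). Its 2 high libraries, ctl replicates 1 and 2, were also the highest for the summed oligodendrocyte markers, at 4218 and 2438 CPM against 796 to 2039 in the other 4, and with these markers as a term it stood at -0.94.

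Mboat2, a remodelling acyltransferase, was higher in all dKO neuron libraries (0.43, SE 0.156), and stood at 0.25 (SE 0.182, unadjusted p = 0.216 in edgeR's fit) with the endothelial markers as a term. Flvcr1, a choline transporter named after its value was seen, was also higher in all of them (0.41, SE 0.166). Napepld, which cleaves N-acyl phosphatidylethanolamine, was lower in all (-0.55, SE 0.190). The 5 genes of headgroup release had values below 0 with all libraries, where 51.1% of all neuron genes were above 0, but Pnpla6 among them turned to 0.12 without dKO replicate 1 and to 0.50 (SE 0.165) with the endothelial markers as a term. Tmem86b, which degrades lysoplasmalogens, had only 7 to 11 estimated counts in ctl and 17 to 30 in dKO libraries (1.40, SE 0.557). Lpin1, Lpcat3, Gpat4, Far2, Ptdss1 and Pnpla6, the remaining genes named by rule, had log2 fold changes of -0.21, -0.20, 0.02, -0.32, -0.20 and -0.20, each with a 95% interval that includes 0.

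**Figure D5:**
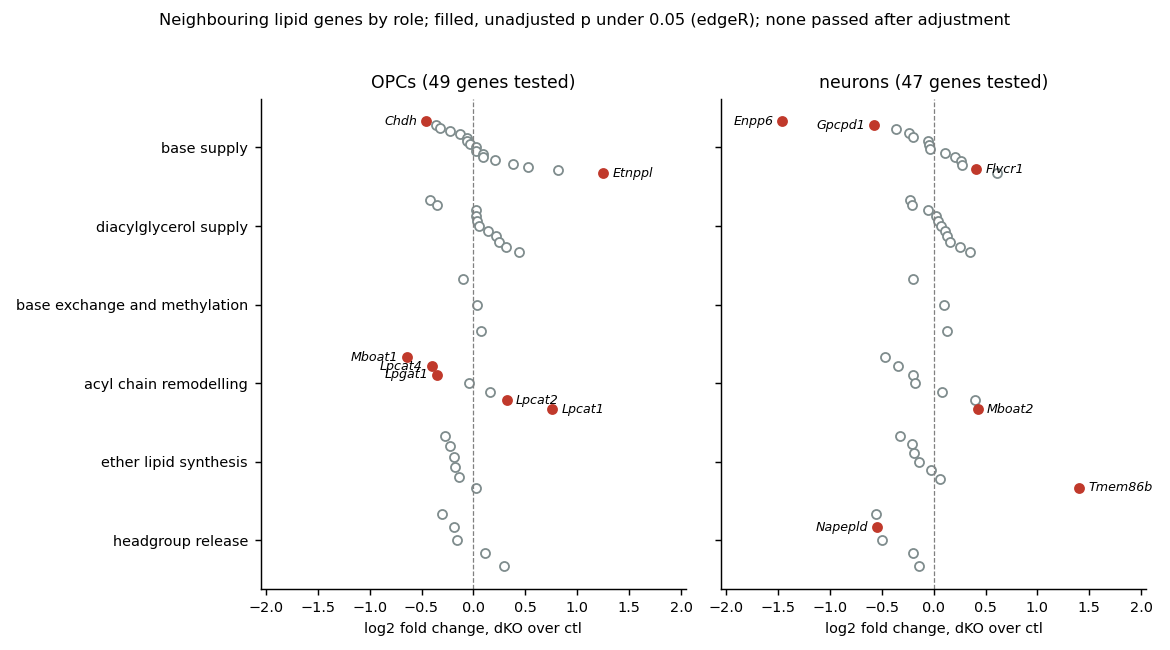
Log2 fold change of dKO over ctl for the neighbouring lipid genes by role, 49 in OPCs and 47 in neurons, with filled points for an unadjusted p under 0.05. The 7 filled OPC points include 5 acyltransferases of both signs, and the 6 filled neuron points run from -1.46 for Enpp6 to 1.40 for Tmem86b. Over all genes tested, 11.5% in OPCs and 9% in neurons had such a p.

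The genes whose pattern over the 6 OPC libraries was most like that of Pcyt2, by the root mean square difference of centred log2 CPM, were Nrbp2 (0.0378), Atn1 (0.0480), Clasrp (0.0608), Eif2b3 (0.0644) and Ctnna3 (0.0661), out of 14462 protein-coding genes with a median of 0.383. Since they were matched to Pcyt2, their own lower counts in dKO OPCs are no further evidence. Among the members Pcyt1b was nearest, at 0.194 and rank 696, and Chpt1 farthest, at 0.403. Over the 6 neuron libraries the nearest genes included Got2 (0.0260), Pex13 (0.0294), Trak1 (0.0296) and Ccdc32 (0.0420), out of 14242 with a median of 0.307. These distances rest on 6 libraries that share depth and cell mixture, and they have no test.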

How the data were processed

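RNA-seq values of cortical OPCs and neurons were analysed, with 3 ctl and 3 dKO libraries of each. The OPC table holds raw counts and FPKM per Ensembl gene as the authors deposited them, made with HISAT2 and featureCounts on GRCm38 per their methods. The submitters' notes name mm39, and coordinates are printed as deposited. It also holds the authors' own fold changes and p-values, which were not used. The neuron table holds estimated counts, TPM and FPKM per RefSeq transcript as the authors deposited them, and the program was not given in the sources used here. Estimated counts were summed per gene and rounded, and 17794 identifiers matched symbols.

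In each cell type, genes averaging 10 or more TMM-normalized counts were tested with edgeR 4.0.16 in R 4.3.3 (quasi-likelihood, genotype only, two-sided, Benjamini-Hochberg adjustment at 0.05 over all genes). The SE is the log2 fold change over the square root of F. DESeq2 1.42.0, other scalings and filters, a replicate block, marker terms and each library left out were the alternatives. The test was checked on simulated counts with a log2 fold change of 2, and it called 177 of 199 changed OPC genes and 162 of 198 changed neuron genes, with 13 and 11 unchanged genes also called. Changes as small as those of the members were not simulated, so the check does not show how often such changes would be called. An exact permutation test of 1 value over 3 libraries a group cannot go below p = 0.1. Whether libraries came from separate sorts was not stated, so p-values measure the spread between these libraries. Replicates differed by more than sampling noise. The members, lists and markers were chosen with earlier results of these data known. Named genes were the members, the gene with the smallest p and the one with the highest FPKM of each role, the 5 nearest to Pcyt2 in each cell type (1 is not reported here), and genes that can share reads with a member. Promoter windows came from RefSeq on GRCm38.p6.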

Additional observations from a re-analysis of the deposited data

How the results depend on the processing

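Across the alternatives, 0 of the 9 other members in OPCs and 0 of the 10 in neurons passed edgeR's or DESeq2's adjusted threshold, and 132 of 144 values of these members in OPCs and 155 of 170 in neurons kept their direction and side of it. DESeq2 called 3 of the neighbouring lipid genes in OPCs against 0. Over all OPC genes, the count at the adjusted threshold was 1, and 291 with DESeq2, 87 with no filter, 199 without dKO replicate 2, 13 with the microglial and 20 with the endothelial markers as a term. Over all neuron genes it was 0, and 89 with DESeq2.

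Replicate numbers are shared between groups, but not every same-numbered pair deviated together (r -0.108, 0.147 and 0.113 in OPCs and 0.166, -0.0758 and -0.0759 in neurons, where replicate 1 of both groups held the Ddx3y counts), so the numbers were not taken to pair the libraries. With the replicate block Pcyt2 in OPCs was -0.60, 0 members and 0 neighbouring genes passed in either cell type, and 27 OPC genes were called over all.

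Some values changed sign, among them Lpcat2 (0.32) and Chkb (-0.38) in OPCs and Far2 (-0.32) and Pnpla6 (-0.20) in neurons. Leaving out 1 library gave a range of -0.016 to 0.11 for Pcyt1a, -0.019 to 0.10 for Pisd, -0.0014 to 0.26 for Chpt1, -0.22 to 0.0078 for Cept1, -0.0057 to 0.18 for Ptdss1 and -0.13 to 0.0203 for Gde1 in OPCs. In neurons it gave -0.42 to 0.0253 for Etnk1, -0.038 to 0.079 for Chkb, -0.15 to 0.12 for Pcyt1a, -0.033 to 0.16 for Chpt1, -0.047 to 0.16 for Gpat4, -0.39 to 0.0713 for Lpcat3 and -0.41 to 0.12 for Pnpla6. With the oligodendrocyte markers as a term in OPCs, Chkb was 0.14, Cept1 0.0116 and Gde1 0.0867, and with the microglial markers Gde1 was 0.0866 and Lpcat2 -0.0027. With the astrocyte markers as a term, Selenoi was 0.0161, Chpt1 -0.15, Cept1 0.15 and Pisd -0.0183 in OPCs, and Pcyt1a 0.0013 in neurons. In neurons the microglial term gave Pcyt1a 0.0270 and Chpt1 -0.0270. The endothelial term there gave Etnk1 0.28, Pcyt1a 0.32, Chpt1 -0.0487, Pisd 0.0249, Ptdss1 0.0229, Lpcat3 0.36, Far2 0.12 and Pnpla6 0.50. The cause was not tested. The scaling from all genes and the endothelial and astrocyte terms were chosen after seeing the data.

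Low counts limit Chkb in OPCs, with at most 32 raw counts, and Tmem86b in neurons, with at most 30. Chkb is overlapped by Gm44502 on the same strand, and the reason for its low OPC counts was not tested.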
